A study of Rattus norvegicus with 10 samples.

Results

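Solute carriers are membrane proteins that move ions, sugars, amino acids, vitamins, metals and other small molecules across the cell membrane and across the membranes of organelles. The lens has no blood supply, so its epithelium, a single cell layer under the anterior capsule, takes glucose, amino acids and ascorbate from the aqueous humor through such carriers and keeps the sodium, potassium and calcium content of the lens in balance. Their names give the family and the member, and the members of a family often share a kind of substrate. The genes described here are the rows of the deposited RNA-seq table whose name begins with Slc or Slco, without the mitochondrial Slc25a family and 1 neurotransmitter carrier. They numbered 46 of the 3334 genes in the table. Of the 54 names beginning with these letters, 8 were left out by that rule.

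The RNA came from lens capsules with their attached epithelium from male Sprague-Dawley rats aged 6 weeks. Each of the 10 samples pooled the 2 capsules of 1 rat. In the Hypothermia Group (5 rats) the isolated lenses were kept in Hibernate-A medium at 4°C for 8 h and washed in cold phosphate-buffered saline before the capsules were taken. In the Normal Group (5 rats) the capsules were taken right after death, so the cold, the medium, the isolation and the 8 h outside the body cannot be told apart.

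The table held genes that the authors had found to differ between these groups, and not all expressed genes, so every value below describes carriers that were already chosen for a difference. Each Hypothermia rat had 9026144 to 12415121 counts in the listed genes and each Normal rat 4792595 to 8177803, and the reads outside the table were not analysed here. Normalized counts are the deposited counts divided by the authors' size factors, which were recovered from their group means and ranged from 0.744 to 0.980 for the Hypothermia rats and from 1.08 to 1.26 for the Normal rats. FPKM is a level per gene length and is the scale used here when genes are compared with each other. log2FoldChange is the Hypothermia Group minus the Normal Group on the log2 scale. A gene was called up-regulated or down-regulated at an adjusted p under 0.05 in edgeR's quasi-likelihood test and a log2FoldChange past 0.25, and past 1 where stated, which are the thresholds of the study. Because of how the table was made, 3221 of 3222 tested genes and all 42 tested carriers had an unadjusted p under 0.05, so the direction and size of a change carry more than the fact of a call.

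Among the markers of the tissue, 6 of 16 lens epithelial genes were listed. Of 5 tested, Gja1 (log2FoldChange -0.43), Pax6 (-0.26) and Emp1 (-1.59) had lower and Wls (0.25) and Mab21l1 (0.26) higher values. Only Pax6 was called by edgeR (adjusted p = 0.0498), which is 20%, against 20.5% of all tested genes called down-regulated. With TMM factors computed on the listed genes, 6 were tested and all were lower. Of these 4 were called down-regulated (66.7%, background 34.3%). With the totals of the listed genes as the scaling, all 6 were called down-regulated (background 74.4%). The summed normalized counts of the 6 epithelial genes were 36465 to 39018 in the Hypothermia rats and 39213 to 45126 in the Normal rats. Of 16 lens fibre markers 14 were listed, and their sums were 1263290 to 2821850 in the Hypothermia rats and 120409 to 825082 in the Normal rats, where the highest was rat 1 and the lowest rat 3. All 14 were called up-regulated (background 52.3%), with a median log2FoldChange of 2.15. With the totals of the listed genes as the scaling, 6 were called up-regulated (42.9%, background 1.77%), with a median of 1.08. Of 16 markers of pigmented epithelium 6 were listed, at 213 to 455 in the Hypothermia Group and 414 to 1705 in the Normal Group, and Fbn1, the one listed marker of the ciliary zonule, was at 882 to 4762 and at 788 to 30055. In the Normal Group rat 5 was the highest for both. The sums for 7 neural retina genes were 3121 to 5448 and 5169 to 9699, those for 6 stromal and vascular genes 897 to 1423 and 1898 to 2886, and the single listed corneal gene stayed at or below 53.3. None of the listed markers was at 0 in all rats, and none of 16 blood and immune genes was in the table. In bulk samples, fewer cells of a type and less RNA per cell cannot be told apart.

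Of the 46 solute carrier genes, 42 had enough counts to be tested. The larger part of them was lower in the Hypothermia Group, while the listed genes as a whole were more often higher. A lower value was found for 28 of the 42 carriers (66.7%) and for 36.3% of all tested genes, and the median log2FoldChange was -0.36 for the carriers and 0.36 for all tested genes. With edgeR's quasi-likelihood test and Benjamini-Hochberg adjustment, 12 carriers (28.6%) were called up-regulated, against a background of 52.3% of tested genes, and 14 (33.3%) were called down-regulated, against 20.5%. The other 16 were not called. Past a log2FoldChange of 1, 7 carriers were up-regulated (16.7%, background 10.3%) and 3 down-regulated (7.14%, background 1.89%).

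Every Hypothermia rat lay above every Normal rat for 10 tested carriers, beside 41.9% of all tested genes, and below every Normal rat for 13, beside 16.7%. Summed over all 46 carriers, the normalized counts were 44561 ± 2925 in the Hypothermia rats and 53852 ± 3761 in the Normal rats (SD, n = 5 each), with no overlap between 41247 to 47316 and 50717 to 59879.

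The balance of the calls depended on the scaling. TMM factors computed on the listed genes, which assume that most of these genes do not change, lowered the median log2FoldChange of all tested genes by 0.29 and gave 6 up-regulated (13.6%, background 19.7%) and 25 down-regulated carriers (56.8%, background 34.3%). Median-of-ratios factors shifted it by -0.31 and gave 4 and 25 (background 18.7% and 34.2%), and the totals of the listed genes shifted it by -1.23 and gave 1 and 30 (2.27% and 68.2%, background 1.77% and 74.4%). The distance between the carriers and the other genes changed less, since the medians of the carriers and of all tested genes were -0.64 and 0.07 with TMM and -1.61 and -0.87 with the totals. The number of lower carriers was 28 of 44 with TMM and 36 of 44 with the totals. Among all tested genes, 1322 of 3223 were lower with TMM and 2944 of 3223 with the totals. With the totals the share of lower genes was therefore smaller among the carriers than among all tested genes.

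**Figure D1:**
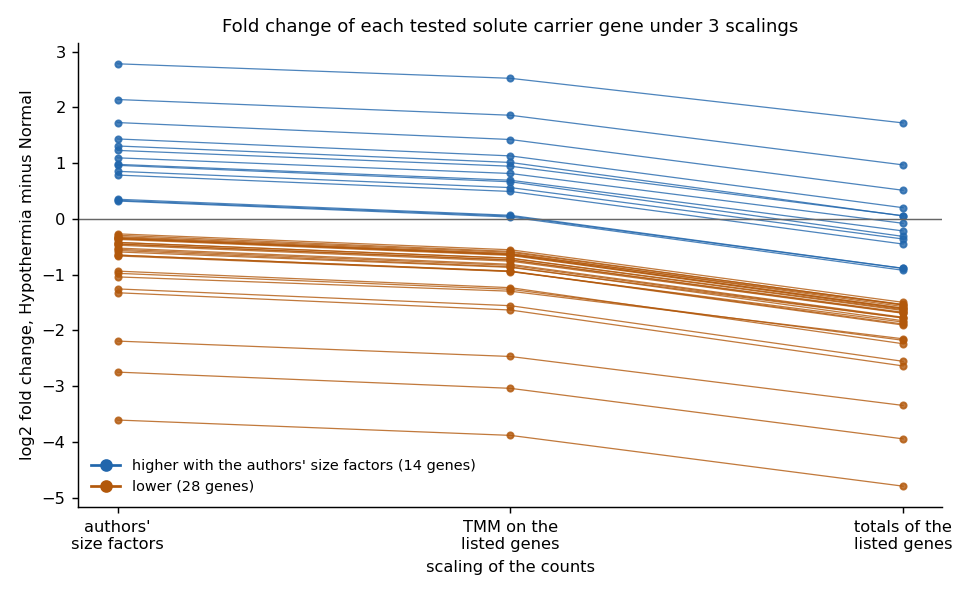
Each line is 1 of the 42 tested solute carrier genes, and the y axis gives its log2FoldChange (Hypothermia minus Normal) under 3 scalings of the counts, from left to right the authors' size factors, TMM on the listed genes and the totals of the listed genes. The lines move down together by about the same amount, so that Slc35a2, Slc35b1 and Slc39a13 lie near 0 with TMM and 36 carriers are lower with the totals.

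**Figure D2:**
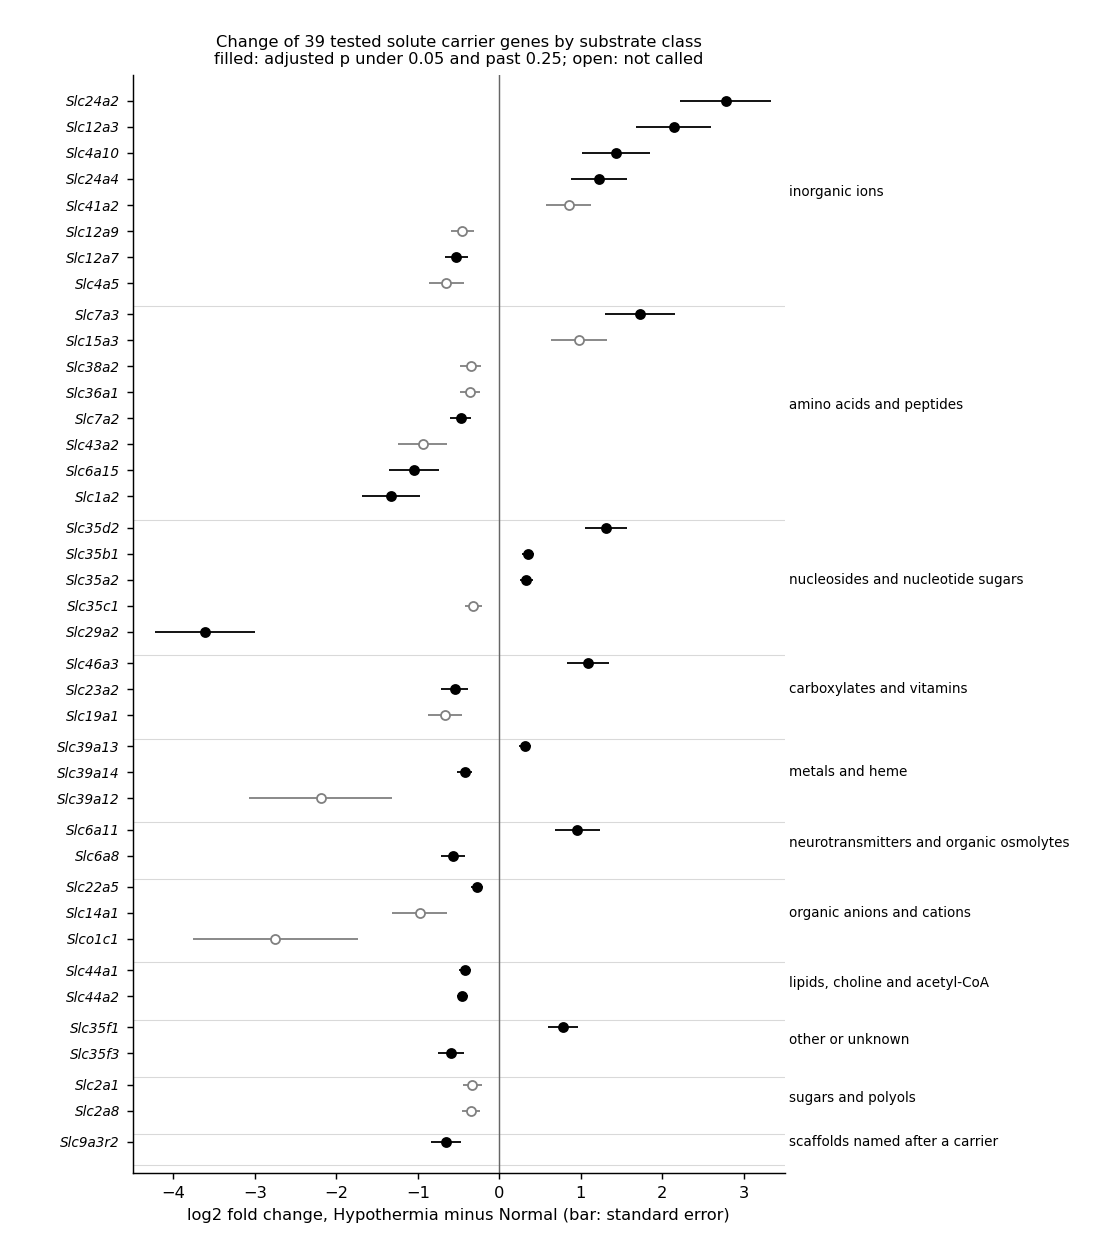
The log2FoldChange (Hypothermia minus Normal, x axis) of 39 tested solute carrier genes, in rows grouped by substrate class, with the standard error as a bar. Filled points are called at an adjusted p under 0.05 and past 0.25, and open points are not called. The inorganic ion class holds 4 of the 7 genes called up-regulated past 1, and 6 of the 12 called up-regulated genes turn lower when the totals of the listed genes set the scaling.

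Carriers of inorganic ions formed the largest class, with 10 members, all tested. They split evenly, with 5 higher and 5 lower, 4 called up-regulated (40%, background 52.3%) and 2 down-regulated (20%, background 20.5%), and a median log2FoldChange of 0.28. With TMM 2 and 5 were called (20% and 50%, background 19.7% and 34.3%). All 4 that were up-regulated passed 1. None of the 5 lower members did.

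Slc24a2 (chr5:105336262-105582375, Rnor_6.0), which exports calcium and potassium in exchange for sodium and is known from cone photoreceptors and neurons, showed the largest rise of all tested carriers. Its normalized counts were 873, 430, 492, 397 and 712 in Hypothermia rats 1 to 5 and 222, 39.3, 27.8, 31.2 and 107 in Normal rats 1 to 5. Every Hypothermia rat lay above every Normal rat, and Normal rat 1 was the highest of its group. The log2FoldChange was 2.78 (standard error 0.56, edgeR adjusted p = 0.0106), and the call held in each of the 10 fits that left out 1 rat. In FPKM the level was 3.92 ± 1.38 in the Hypothermia Group and 0.577 ± 0.56 in the Normal Group (SD, n = 5).

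Slc24a4 (chr6:126018841-126153867, Rnor_6.0), another exchanger of the same family, was higher as well, from a larger starting level. The Hypothermia rats had normalized counts of 1404, 765, 1363, 675 and 1087 and the Normal rats 600, 537, 208, 265 and 654, so the groups did not overlap, but the lowest Hypothermia rat, 4, was only just above the highest Normal rat, 5. The log2FoldChange was 1.23 (standard error 0.34, edgeR adjusted p = 0.04). Leaving out 1 rat removed the call in 6 of 10 fits. With TMM the adjusted p was 0.092.

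The 300-base windows around the start of both exchanger genes are shown because both belong to 1 family and were called up-regulated past 1. They are RefSeq sequences of the GRCr8 build, 250 bases before the annotated start to 50 bases after it, on the strand of the gene, at chr5:106787731-106788030 (minus strand) and chr6:127044220-127044519 (plus strand). Capitals mark a match to GAANNTTC, the core of a heat shock element, which reads the same on both strands.
Slc24a2: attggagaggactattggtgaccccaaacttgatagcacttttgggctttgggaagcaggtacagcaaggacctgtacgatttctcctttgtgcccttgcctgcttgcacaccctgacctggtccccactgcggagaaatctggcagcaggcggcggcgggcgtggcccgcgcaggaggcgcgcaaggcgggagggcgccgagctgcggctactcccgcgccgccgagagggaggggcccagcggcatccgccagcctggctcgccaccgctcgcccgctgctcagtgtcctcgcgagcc
Slc24a4: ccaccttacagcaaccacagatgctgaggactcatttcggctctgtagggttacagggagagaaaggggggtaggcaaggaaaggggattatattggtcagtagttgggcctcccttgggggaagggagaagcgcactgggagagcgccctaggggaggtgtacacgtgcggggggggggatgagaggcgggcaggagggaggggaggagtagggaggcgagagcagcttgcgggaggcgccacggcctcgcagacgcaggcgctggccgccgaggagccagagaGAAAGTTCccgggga
The match in the Slc24a4 window began 35 bases after the start, and the Slc24a2 window held no match to these letters.

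Slc12a3 (chr19:11106033-11144641, Rnor_6.0), the sodium-chloride cotransporter on which thiazide diuretics act in the kidney, was higher at a very low level. The Hypothermia rats had normalized counts of 33.8, 14.6, 23.8, 12.2 and 28.2, and the Normal rats 11.1, 3.27, 3.98, 2.4 and 4.58. The groups did not overlap, though Normal rat 1 came close to Hypothermia rat 4. The gene had enough counts to be tested through the Hypothermia rats, where it was higher. It gave a log2FoldChange of 2.14 (standard error 0.46, edgeR adjusted p = 0.0119) and the FPKM only 0.31 ± 0.124 and 0.0696 ± 0.0477.

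Slc4a10 (chr3:47995959-48287910, Rnor_6.0), which brings in bicarbonate with sodium, had normalized counts of 655, 282, 870, 273 and 249 in the Hypothermia rats and 182, 175, 138, 91.2 and 277 in the Normal rats. Hypothermia rats 1 and 3 stood far above the others, and the remaining Hypothermia rats lay close to Normal rat 5, so the groups overlapped. The log2FoldChange was 1.43 (standard error 0.42, edgeR adjusted p = 0.046). Leaving out 1 rat removed the call in 6 of 10 fits, those without Hypothermia rat 1 or 3 and those without Normal rat 1, 2, 3 or 4. With TMM the adjusted p was 0.117.

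The other bicarbonate carrier, Slc4a5, had the opposite sign and a much higher level, with an FPKM of 26.1 ± 7.29 in the Hypothermia Group and 40.9 ± 10.1 in the Normal Group. In normalized counts it stood at 1530, 1484, 1011, 2227 and 1861 against 2235, 2011, 2132, 3506 and 2867, and the groups overlapped through Hypothermia rat 4. It was not called (log2FoldChange -0.65, edgeR adjusted p = 0.0678). With TMM it was called (edgeR adjusted p = 0.0262), as with DESeq2 on the same size factors (adjusted p = 0.0184). Without Normal rats 4 and 5, the highest of the group, the log2FoldChange was -0.39.

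Slc12a7, which lets potassium and chloride out together and takes part in the control of cell volume, was lower by a modest amount. It had normalized counts of 422, 412, 370, 357 and 415 in the Hypothermia rats and 478, 489, 457, 714 and 707 in the Normal rats. The groups did not overlap, and Normal rats 4 and 5 stood apart from the other three. The log2FoldChange was -0.53 (standard error 0.14, edgeR adjusted p = 0.0276), and -0.26 without Normal rats 4 and 5.

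The other members described here were not called. Slc12a9, a relative of the cation-chloride cotransporters, gave a log2FoldChange of -0.45 (adjusted p = 0.0605), and Slc41a2, a magnesium carrier, gave 0.85 (adjusted p = 0.0617). With DESeq2 on the same size factors both were called (adjusted p = 0.0379 and 0.0233). With TMM only Slc12a9 was called (edgeR adjusted p = 0.0146). Slc41a2 had a value below 0 when the totals of the listed genes set the scaling.

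Of the 9 carriers of amino acids and peptides, 8 were tested. Here 6 were lower and 2 higher, with 3 called down-regulated (37.5%, background 20.5%), 1 called up-regulated (12.5%, background 52.3%), and a median log2FoldChange of -0.42. With TMM 9 were tested, of which 6 were called down-regulated (66.7%, background 34.3%) and 1 up-regulated (11.1%, background 19.7%). The class spanned a wide range of levels. Those that changed past 1 had a mean FPKM below 2.7 in both groups.

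The carriers of cationic amino acids moved in opposite directions. Slc7a3 (chrX:70972765-70978952, Rnor_6.0), a carrier of arginine and lysine known mainly from neurons, had normalized counts of 78.4, 71.1, 205, 87.8 and 26.9 in the Hypothermia rats and 33.3, 27, 19.9, 32 and 29.3 in the Normal rats. Hypothermia rat 3 was far above the others, and Hypothermia rat 5 lay inside the Normal range. The log2FoldChange was 1.73 (standard error 0.43, edgeR adjusted p = 0.0212), and the call was lost without Normal rat 3. Slc7a2 (chr16:54460067-54513349, Rnor_6.0), a second carrier of the same amino acids, was among the most abundant members with an FPKM of 92 ± 13.3 in the Hypothermia Group and 128 ± 17.2 in the Normal Group. It had 3099 to 4549 against 4695 to 6621 normalized counts without overlap and was down-regulated (log2FoldChange -0.47, standard error 0.13, edgeR adjusted p = 0.0297). Leaving out 1 rat removed this call in 5 of 10 fits.

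Slc1a2 (chr3:92640752-92665644, Rnor_6.0), the main glutamate carrier of astrocytes, fell past 1. The rats' normalized counts were 9.65, 11.5, 26.4, 12.2 and 18.8 in the Hypothermia rats and 20.4, 45.8, 38.2, 35.2 and 56.8 in the Normal rats. The groups overlapped through Hypothermia rat 3 and Normal rat 1. The log2FoldChange was -1.33 (standard error 0.35, edgeR adjusted p = 0.0286), and 8 of the 10 fits without 1 rat no longer gave the call.

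Slc6a15 (chr7:45328105-45382229, Rnor_6.0), which takes up branched-chain amino acids and proline, also fell past 1, with normalized counts of 32.6, 33.4, 16.3, 35.7 and 26.9 in the Hypothermia rats and 99, 43.4, 41.4, 48.8 and 68.7 in the Normal rats. The groups did not overlap, and Normal rat 1 was the highest. The log2FoldChange was -1.04 (standard error 0.31, edgeR adjusted p = 0.0432), and here too 8 of those 10 fits no longer gave the call.

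Slc38a2, a sodium-coupled carrier of small neutral amino acids that is known to be induced when amino acids are scarce, was the second most abundant member, with an FPKM of 112 ± 18.9 in the Hypothermia Group and 142 ± 10.9 in the Normal Group. Its normalized counts were 9470, 10083, 9420, 7062 and 7020 against 11920, 11374, 10097, 10092 and 11454. The groups were separate only just, Hypothermia rat 2 lying below Normal rat 4, and Hypothermia rats 4 and 5 were the lowest. It was not called (log2FoldChange -0.35, standard error 0.13, edgeR adjusted p = 0.0992). It was called with TMM (edgeR adjusted p = 0.0075) and with DESeq2 on the same size factors (adjusted p = 0.0289).

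Among the others, Slc36a1, a proton-coupled carrier of the lysosome, had a log2FoldChange of -0.36 (edgeR adjusted p = 0.0825) and Slc43a2, a carrier of large neutral amino acids, -0.94 (adjusted p = 0.0585). With TMM both were called (edgeR adjusted p = 0.0111 and 0.0271). With DESeq2 on the same size factors only Slc43a2 was called (adjusted p = 0.0257). Slc15a3, a lysosomal carrier of peptides and histidine, had 18.8 to 26.9 against 4.77 to 16 normalized counts without overlap and was not called (log2FoldChange 0.98, adjusted p = 0.089). It fell below 0 with the totals as the scaling. Slc7a10, a carrier of glycine, alanine and serine, had too few counts for the fit. Its values of 18.1, 9.41, 30.1, 8.17 and 30.9 lay above the Normal values of 6.47, 7.36, 6.37, 4.8 and 6.41 (p = 0.00794 in a two-sided exact permutation test, the lowest p that 5 against 5 rats allow).

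Sugar carriers held the most abundant member, Slc2a1 (chr5:138154673-138182897, Rnor_6.0), the basal glucose carrier. Its FPKM was 421 ± 17.9 in the Hypothermia Group and 531 ± 60.7 in the Normal Group, and it made up 40.8% and 42.5% of all normalized counts of the carriers. The counts were 18357, 19090, 18625, 17275 and 17459 in the Hypothermia rats and 20590, 23470, 24450, 19895 and 26116 in the Normal rats. No value of one group reached the other, and the Hypothermia rats lay closer together than the Normal rats.

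The difference for Slc2a1 did not pass the test (log2FoldChange -0.33, standard error 0.12, edgeR adjusted p = 0.0844). It passed with TMM (adjusted p = 0.0057) and with DESeq2 on the same size factors (adjusted p = 0.0019). Slc2a8, a glucose carrier of intracellular vesicles, had the same kind of value (log2FoldChange -0.35, edgeR adjusted p = 0.0607), and its lowest Normal rat lay inside the Hypothermia range.

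The remaining sugar carriers were too low for the fit and differed in sign. Slc2a9, which carries urate and fructose, had normalized counts of 24.1, 8.36, 22.6, 13.3 and 26.9 in the Hypothermia rats and 6.47, 4.91, 3.18, 5.6 and 3.66 in the Normal rats (exact permutation test p = 0.00794). Slc2a4, the insulin-dependent glucose carrier of muscle and fat, had 3.62, 3.14, 1.26, 2.04 and 2.69 against 9.25, 5.73, 11.1, 10.4 and 5.49 (exact permutation test p = 0.00794). Neither pair of groups overlapped, on values of a few counts for Slc2a4.

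Slc2a1, Slc38a2 and Slc7a2 together made up 69.1% ± 2.01 of the carriers' normalized counts in the Hypothermia Group and 73.3% ± 2.33 in the Normal Group (SD, n = 5). These 3 genes differed by 8692 between the groups' mean sums. That was 72.7% of the fall of 11959 summed over the 28 lower carriers, and 93.5% of the net difference of 9291 over all 46, in which the higher carriers offset part of the fall. By FPKM, the next levels were those of Slc35b1, Slc39a13, Slc35f3 and Slc4a5, between 26.1 and 45.8 in either group, and the genes that changed past 1 were below 5 in both groups, except Slc24a4.

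**Figure D3:**
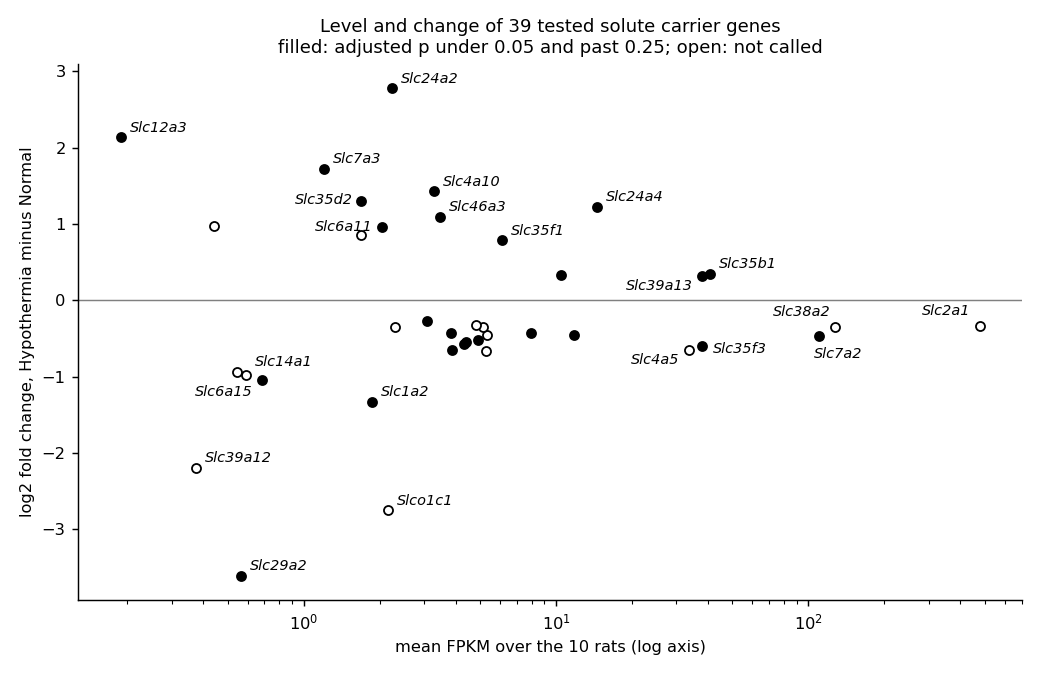
Mean FPKM over the 10 rats (x axis, log scale) and log2FoldChange (Hypothermia minus Normal, y axis) of 39 tested solute carrier genes. Filled points are called at an adjusted p under 0.05 and past 0.25, and open points are not called. The most abundant carrier, Slc2a1, lies at -0.33, while 9 of the 10 genes called past 1 have a mean FPKM under 5.

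Carriers of nucleosides and nucleotide sugars, 5 genes, were all tested, with 3 called up-regulated (60%, background 52.3%) and 1 down-regulated (20%, background 20.5%), and with 1 and 2 called with TMM (20% and 40%, background 19.7% and 34.3%). The largest fall among all carriers was that of Slc29a2 (chr1:220400855-220407189, Rnor_6.0), which lets nucleosides and nucleobases pass the cell membrane in both directions. Its normalized counts were 0, 1.05, 2.51, 4.08 and 1.34 in the Hypothermia rats and 14.8, 22.9, 15.1, 16.8 and 50.3 in the Normal rats. The groups were far apart on very low counts, with Hypothermia rat 1 at 0 and Normal rat 5 well above its group. The log2FoldChange was -3.61 (standard error 0.62, edgeR adjusted p = 0.00573). It lay between -4.18 and -3.16 with 1 rat left out, and the call held in each of these 10 fits. The gene had enough counts to be tested through the Normal rats alone, and it was listed for its difference. The call is therefore not independent support. In FPKM the level was 0.0787 ± 0.0684 and 1.05 ± 0.661.

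The window around the start of Slc29a2 is shown because it belongs to the carrier with the largest fall. It comes from RefSeq (GRCr8, chr1:211757074-211757373, plus strand), and none of the motifs searched was found in it.
Slc29a2: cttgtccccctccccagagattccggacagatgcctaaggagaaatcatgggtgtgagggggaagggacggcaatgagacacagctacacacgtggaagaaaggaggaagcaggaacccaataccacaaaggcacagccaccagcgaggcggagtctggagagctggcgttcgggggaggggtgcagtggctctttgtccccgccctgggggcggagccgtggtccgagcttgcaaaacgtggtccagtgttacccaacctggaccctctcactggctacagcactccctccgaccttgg

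Nucleotide sugar carriers bring the building blocks of glycans into the Golgi apparatus and the endoplasmic reticulum. Slc35d2, Slc35b1 and Slc35a2 had higher values and Slc35c1 a lower one, while 36.3% of all tested genes were lower. Slc35d2 (chr17:1618189-1648973, Rnor_6.0) had normalized counts of 92.8, 61.7, 89.1, 50 and 106 in the Hypothermia rats and 39.8, 35.2, 27.1, 36 and 22.9 in the Normal rats. The groups did not overlap. The log2FoldChange was 1.31 (standard error 0.26, edgeR adjusted p = 0.0083), and the call held whichever rat was left out.

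Slc35b1, a nucleotide carrier of the endoplasmic reticulum, was raised by less but with little spread, at 1103 to 1211 against 816 to 961 normalized counts without overlap (log2FoldChange 0.35, standard error 0.07, edgeR adjusted p = 0.0104). Slc35a2, the UDP-galactose carrier of the Golgi apparatus, was likewise higher, at 352 to 433 against 294 to 331 without overlap (log2FoldChange 0.33, adjusted p = 0.021). Both depended on the scaling, with log2FoldChanges of 0.06 and 0.05 with TMM (adjusted p = 1 for each) and of -0.89 for each with the totals. Slc35c1, the GDP-fucose carrier, had the opposite sign and was not called (log2FoldChange -0.32, adjusted p = 0.0695).

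The 2 members of the family with less known substrates differed. Slc35f1 had normalized counts of 722, 420, 613, 347 and 523 in the Hypothermia rats and 334, 300.2, 242, 318 and 329 in the Normal rats, without overlap. It was up-regulated (log2FoldChange 0.78, standard error 0.18, edgeR adjusted p = 0.0159), not called with TMM (adjusted p = 0.0985), and lower with the totals as the scaling (-0.45). Slc35f3 was down-regulated, at 382 to 702 against 779 to 1075 without overlap (log2FoldChange -0.59, standard error 0.16, edgeR adjusted p = 0.0281).

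Among carriers of vitamins and carboxylates, Slc46a3 (chr12:8725517-8741951, Rnor_6.0), a protein of the lysosome membrane, rose past 1. The Hypothermia rats had normalized counts of 246, 136, 210, 153 and 204, and the Normal rats 152, 69.5, 58.1, 76 and 89.7. Normal rat 1 lay within the Hypothermia range and the other four below it. The log2FoldChange was 1.09 (standard error 0.26, edgeR adjusted p = 0.0172), the call was lost without Normal rat 4, and the value was -0.08 with the totals as the scaling.

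The window around the start of Slc46a3 is shown because it was the one member up-regulated past 1 with a match to TGACNNNGC, the core of the antioxidant response element, here searched on both strands and set in capitals. The sequence is from RefSeq (GRCr8, chr12:12176584-12176883, plus strand).
Slc46a3: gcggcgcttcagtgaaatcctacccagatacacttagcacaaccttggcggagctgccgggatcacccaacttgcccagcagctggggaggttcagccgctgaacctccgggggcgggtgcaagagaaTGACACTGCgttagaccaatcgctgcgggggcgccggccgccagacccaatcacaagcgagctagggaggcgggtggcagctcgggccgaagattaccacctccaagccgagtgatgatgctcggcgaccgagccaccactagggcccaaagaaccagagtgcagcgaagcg

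A window was at hand for 34 of the 46 carriers, and 9 of them (26.5%) held TGACNNNGC, compared with 12.1% of all 33469 windows. These 9 comprised 4 carriers with a higher and 5 with a lower value in the Hypothermia Group, Slc38a2 and Slc39a13 among them. GAANNTTC was in 3 of the 34 (8.82%) and in 8.59% of all windows, and TGATGCAA, the amino acid response element, on either strand in 0 of 34 and in 0.795% of all. The carriers' windows had a median GC content of 62.7%, against 51.7% for all windows, which was not taken into account here. Such a match is a short run of letters and not evidence of binding.

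Slc23a2, which carries ascorbate with sodium, was down-regulated. In the Hypothermia rats it stood at 423, 381, 335, 339 and 402 normalized counts, and in the Normal rats at 531, 398, 426, 665 and 728. The groups overlapped through Normal rat 2, and Normal rats 4 and 5 were the highest. The log2FoldChange was -0.55 (standard error 0.16, edgeR adjusted p = 0.0457) and -0.26 without Normal rats 4 and 5, and 8 of the 10 fits without 1 rat no longer gave the call. Slc19a1, the folate carrier, showed the same order of the Normal rats at its top, with rats 5 and 4 at 395 and 310, and was not called (log2FoldChange -0.67, adjusted p = 0.0603, and -0.34 without those rats). Slc19a1 was called with TMM (edgeR adjusted p = 0.0152) and with DESeq2 on the same size factors (adjusted p = 0.0273).

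The zinc carriers of the Slc39 family differed in direction. Slc39a13, which moves zinc out of vesicles of the early secretory pathway, was up-regulated, with normalized counts of 1578, 1776, 1582, 1672 and 1798 in the Hypothermia rats and 1371, 1271, 1450, 1364 and 1284 in the Normal rats. The groups did not overlap. The log2FoldChange was 0.32 (standard error 0.07, edgeR adjusted p = 0.0138), 0.03 with TMM and -0.92 with the totals.

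Slc39a14, which brings zinc and iron in through the cell membrane, was down-regulated, at 275, 279, 232, 249 and 253 against 362, 369, 321, 305 and 374. These groups did not overlap either, and the call held in each fit that left out 1 rat (log2FoldChange -0.43, standard error 0.09, edgeR adjusted p = 0.00971). Slc39a12, a zinc importer known from brain, was near the limit of counting, at 8.44, 12.5, 5.02, 3.06 and 0 against 17.6, 9.82, 1.59, 59.2 and 50.3. Its groups overlapped, Normal rats 4 and 5 carried the difference, and it was not called (log2FoldChange -2.19, standard error 0.87, edgeR adjusted p = 0.151).

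Of the 3 carriers of neurotransmitters and organic osmolytes, 1 was called up-regulated (33.3%, background 52.3%) and 1 down-regulated (33.3%, background 20.5%). With TMM 0 and 1 were called (0% and 33.3%, background 19.7% and 34.3%). Slc6a11, a GABA carrier, had normalized counts of 97.7, 68, 66.5, 75.5 and 128 in the Hypothermia rats and 28.7, 55.6, 40.6, 34.4 and 64.1 in the Normal rats. The groups did not overlap, by a narrow margin at Normal rat 5. It was up-regulated (log2FoldChange 0.96, standard error 0.27, edgeR adjusted p = 0.0366), was not called with TMM (adjusted p = 0.24), and had a value of -0.32 with the totals as the scaling.

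Slc6a8, the creatine carrier, was down-regulated, at 217, 212, 212, 224 and 267 against 278, 278, 308, 350 and 464 without overlap (log2FoldChange -0.57, standard error 0.14, edgeR adjusted p = 0.023). The call for Slc6a8 was lost without Hypothermia rat 1 or 3 or Normal rat 4, and its log2FoldChange was -0.35 without Normal rats 4 and 5.

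Both choline carriers in the table, Slc44a1 and Slc44a2, were down-regulated with little spread. Choline is the head group of phosphatidylcholine, a main membrane lipid. Slc44a2 had normalized counts of 553, 569, 575, 569 and 564 in the Hypothermia rats and 728, 783, 726, 828 and 811 in the Normal rats. The gap between the groups was wide next to the spread within them, above all in the Hypothermia Group (566 ± 8.06 and 775 ± 46.9, SD, n = 5). The log2FoldChange was -0.45 (standard error 0.06, edgeR adjusted p = 0.00459), the lowest adjusted p among the carriers.

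Slc44a1 had 615, 638, 652, 614 and 531 against 814, 894, 837, 755 and 793, again without overlap (log2FoldChange -0.42, standard error 0.08, edgeR adjusted p = 0.00628). Both calls held in each fit that left out 1 rat. Without Normal rats 4 and 5 the log2FoldChange was -0.48 for Slc44a1 and -0.40 for Slc44a2, with an adjusted p of 0.0571 for each.

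In the class of organic anions and cations, which here also holds the urea carrier, no member was higher in the fit. Slc22a5, the carnitine carrier, was down-regulated by a small step, at 262 to 304 against 328 to 378 normalized counts without overlap (log2FoldChange -0.27, standard error 0.07, edgeR adjusted p = 0.0339), and 8 of the 10 fits without 1 rat gave no call, with values between -0.29 and -0.24 over all 10. Slc14a1, the urea carrier, was not called (log2FoldChange -0.98, adjusted p = 0.0812). It was called with TMM (edgeR adjusted p = 0.0243) and with DESeq2 on the same size factors (adjusted p = 0.0494). Slc10a6, a carrier of sulfated steroids, was too low for the fit, at 21.7, 7.32, 41.4, 17.3 and 4.03 against 5.55, 3.27, 2.39, 3.2 and 4.58, and the groups overlapped (exact permutation test p = 0.0238).

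Slco1c1, which carries thyroxine and other organic anions and is known from the blood-brain barrier and the ciliary epithelium, had the widest spread. Its normalized counts were 80.8, 15.7, 7.53, 5.1 and 20.2 in the Hypothermia rats and 92.5, 72.8, 4.77, 266 and 430.2 in the Normal rats. The ranges overlapped widely, and it was not called (log2FoldChange -2.75, standard error 1.01, edgeR adjusted p = 0.115). Without Normal rats 4 and 5 the log2FoldChange was -1.13.

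The zonule gene Fbn1 had 4762, 2231, 1600, 882 and 4329 normalized counts in Hypothermia rats 1 to 5 and 6352, 2570, 788, 27614 and 30055 in Normal rats 1 to 5. The order of the rats from high to low was the same for Fbn1 and Slco1c1 within each group, namely rats 1, 5, 2, 3, 4 in the Hypothermia Group and 5, 4, 1, 2, 3 in the Normal Group. Slc39a12 had another order than Fbn1 in both groups, though in the Normal Group only rats 4 and 5 changed places (59.2 and 50.3). The sum of the pigmented epithelium markers had the order of Fbn1 in the Normal Group and another one in the Hypothermia Group. There only rats 5 and 1 changed places (455 and 447). These orders were compared after the values had been seen, and the part of such tissue in the value of Slco1c1 was not tested.

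Slc9a3r2 is named after a sodium-proton exchanger but encodes a scaffold protein that binds carriers to the cytoskeleton. It was down-regulated, at 89.1 to 147 against 119 to 201 normalized counts with overlap (log2FoldChange -0.65, standard error 0.18, edgeR adjusted p = 0.0349), and 7 of the 10 fits without 1 rat no longer gave the call.

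**Figure D4:**
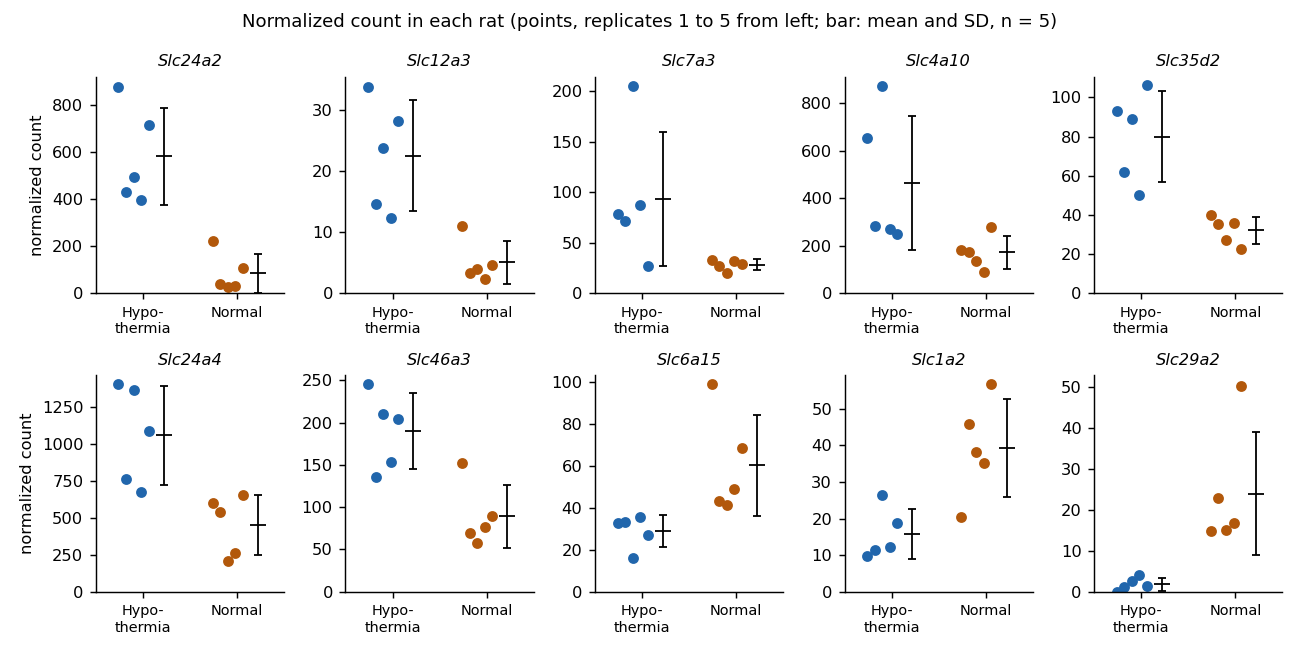
Normalized counts (y axis, from 0) in the 5 Hypothermia and the 5 Normal rats for the 10 solute carrier genes called past a log2FoldChange of 1, with points for replicates 1 to 5 from left and bars for the mean and SD. Groups overlap for Slc7a3, Slc4a10, Slc46a3 and Slc1a2, and Normal rat 1 is the highest of its group for 5 of the 7 up-regulated genes. With the totals of the listed genes as the scaling Slc46a3 turns lower.

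Grouped by where the proteins sit, a split made after the values had been seen, the 9 carriers of the Golgi apparatus, endoplasmic reticulum, lysosome and other vesicles had 6 higher and 3 lower values, with 5 called up-regulated (55.6%, background 52.3%) and 0 called down-regulated (background 20.5%) by edgeR. Among the 33 other tested members, 8 were higher and 25 lower, with 7 called up-regulated (21.2%) and 14 down-regulated (42.4%). The medians were 0.33 and -0.45. This is a description, and the difference was not tested. All 3 lower members, Slc2a8, Slc35c1 and Slc36a1, had an unadjusted p under 0.05. With TMM all 3 were called down-regulated (edgeR adjusted p = 0.00692, 0.0119 and 0.0111), and only Slc35d2 and Slc46a3 of the 9 stayed called up-regulated. All 3 were also called when p-values were adjusted over the tested genes alone (0.0115, 0.0132 and 0.0156), while DESeq2 on the same size factors called Slc2a8 (adjusted p = 0.0496) and not the other two. With the totals of the listed genes 8 of the 9 were lower and 6 were called down-regulated (66.7%, background 74.4%).

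The carriers with higher values had a median gene length of 2726 bases and those with lower values one of 3479 bases, and over all tested genes the medians were 1628 and 3644. The rats within the Normal Group were not alike. Rat 1, with the largest sum of lens fibre markers, was the highest Normal rat for 7 of the 14 higher carriers and for 5 of the 7 called past 1. Rat 4 or 5, with the largest counts of Fbn1 and the pigmented epithelium markers, was the highest for 19 of the 28 lower carriers. Summed over these 28, Normal rat 5 was the highest (55732), but rat 4 (47208) lay below rats 2 and 3 (51079 and 49106). How often each rat was the highest among all tested genes is not given here. The part of fibre cells or of pigmented epithelium in these differences was not tested.

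**Figure D5:**
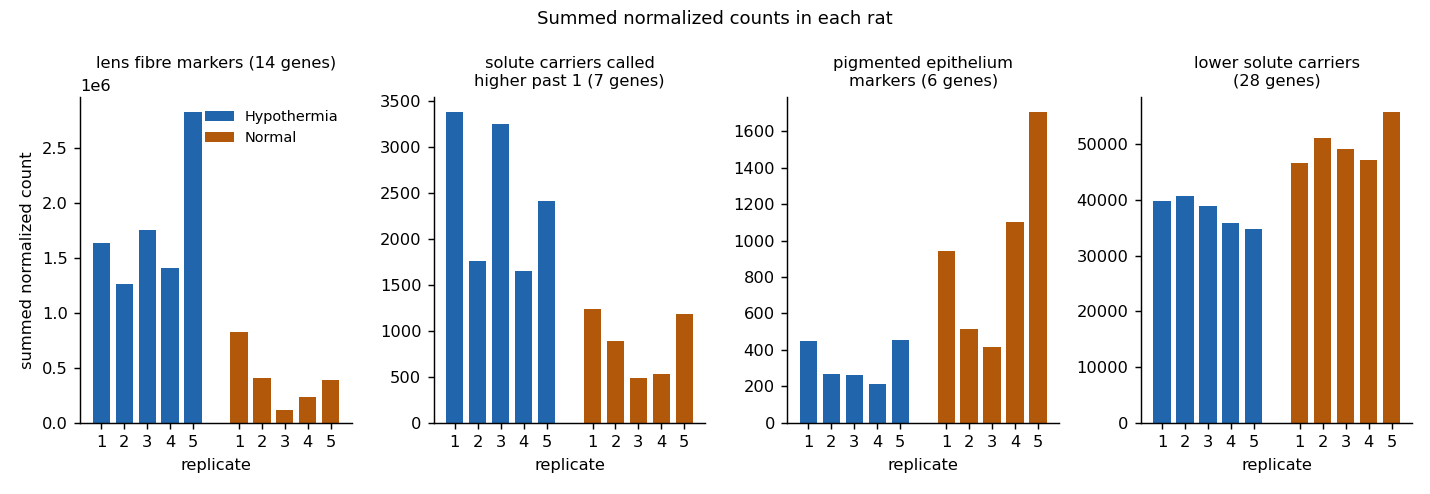
Summed normalized counts in each rat (bars, from 0, replicates 1 to 5 of each group) for 14 lens fibre markers, the 7 solute carriers called up-regulated past 1, 6 pigmented epithelium markers and the 28 solute carriers with lower values. The first pair of sums is highest in Normal rat 1 and the second pair in Normal rat 5 among the Normal rats. Below these rats the order of the Normal rats differs within each pair. The 28 lower carriers sum to 34830 to 40676 in the Hypothermia Group and to 46648 to 55732 in the Normal Group.

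Of the 26 called carriers, 10 kept their call in each of the 10 fits that left out 1 rat. These were Slc24a2, Slc12a3, Slc35d2, Slc35f1, Slc35b1 and Slc39a13 among those up-regulated, and Slc29a2, Slc44a1, Slc44a2 and Slc39a14 among those down-regulated. All 26 came from a list chosen for a difference. Slc12a3 and Slc29a2 had enough counts to be tested through the group where they were higher. Slc6a11 was not called in 6 of these fits, Slc12a7 in 5, Slc35f3 in 4 and Slc35a2 in 3. The number of down-regulated carriers fell from 14 to 5 without Normal rat 4 and to 5 without Normal rat 5, and to between 6 and 9 without Hypothermia rat 1, 3, 4 or 5. The number up-regulated past 1 fell from 7 to 4 without Hypothermia rat 1 and without Normal rat 3. Down-regulated past 1 were 5 without Normal rat 3 and 1 without Hypothermia rat 1, 2 or 5 or Normal rat 4 or 5. How many of all tested genes were called in these 10 fits is not given here. The losses therefore cannot be read as particular to the carriers. With both Normal rats 4 and 5 left out, edgeR called 0 carriers and 0 of 3254 tested genes at an adjusted p under 0.05, while 36 of 44 carriers had an unadjusted p under 0.05.

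Genes that work with the carriers were partly listed. Of 28 partners and regulators 7 were in the table, with 4 called up-regulated (57.1%, background 52.3%) and 0 called down-regulated (background 20.5%) by edgeR. With TMM 1 and 2 were called (14.3% and 28.6%, background 19.7% and 34.3%). Stk39, a kinase that acts on cation-chloride cotransporters, rose past 1, with a log2FoldChange of 1.37 (edgeR adjusted p = 0.0076). Values below 0 were found for Emb, a partner of monocarboxylate carriers (-2.47, edgeR adjusted p = 0.0585), and Txnip, which lowers glucose uptake (-0.80, adjusted p = 0.0755), and neither was called. The sodium pump sets the sodium gradient that many carriers use, and 3 of 15 genes of its subunits and small regulators were listed. Its small regulators Fxyd6 (log2FoldChange 1.33, edgeR adjusted p = 0.0068) and Fxyd1 (1.22, adjusted p = 0.0081) were up-regulated. Atp1b1, a beta subunit of the pump itself, had a log2FoldChange of -0.73 and was not called (edgeR adjusted p = 0.109), though it was with TMM.

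Of 40 amino acid response genes, which include targets of the regulator that also acts on Slc38a2, 15 were tested. Of these 12 were called up-regulated and 2 down-regulated, with a median log2FoldChange of 0.90, where 52.3% and 20.5% of all tested genes were called. With TMM 9 and 2 were called (60% and 13.3%, background 19.7% and 34.3%), and with the totals 0 and 5 (33.3% down-regulated, background 74.4%). Among the Normal rats the summed counts of these genes fell in the order 1, 2, 5, 4 and 3. The lens fibre marker sums had the same order (825082, 403150, 390350, 237989 and 120409). The sums of the partners and regulators and of the glutathione genes had that order too, and those of the sodium pump and glycolysis genes did not. Among the Hypothermia rats the fibre sums fell in the order 5, 3, 1, 4 and 2, and none of these lists had that order. For the amino acid response genes it was 3, 1, 5, 4 and 2. These orders were compared after the values had been seen. The part of fibre cells in these changes was not tested. Asns, the asparagine synthetase, had a log2FoldChange of 1.65 (edgeR adjusted p = 0.00459). Pycr1, an enzyme of proline synthesis, had 1.41 (adjusted p = 0.0103). Slc7a3 was called in the same direction, Slc7a2 in the other, and Slc38a2, at -0.35, was not called.

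Of 12 genes of glutathione synthesis and turnover, which use cysteine, glutamate and glycine brought in by carriers, 7 were tested, with 4 called up-regulated (57.1%, background 52.3%) and 0 down-regulated (background 20.5%) by edgeR. With TMM 3 and 1 were called (42.9% and 14.3%, background 19.7% and 34.3%), and with the totals 0 and 3 (42.9% down-regulated, background 74.4%). Gclc, the catalytic subunit of the first enzyme, had a log2FoldChange of 1.19 (edgeR adjusted p = 0.0357). Of 20 genes of glycolysis, 7 were tested, with 3 called up-regulated (42.9%) and 1 down-regulated (14.3%). With TMM 2 and 2 were called (28.6% each), and with the totals 0 and 3 (42.9%), so that the share called up-regulated was under its background with the authors' size factors and above it with TMM. Pgk1, an enzyme of that pathway, had a log2FoldChange of 1.04 (adjusted p = 0.0102) and Pfkp, a subunit of phosphofructokinase, one of -1.14 (adjusted p = 0.00459), beside the value of -0.33 for the glucose carrier Slc2a1.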

How the data were processed

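RNA-seq of lens capsules from 10 rats was analysed. Per the labels, the authors used HISAT2 2.0.5 for alignment (build Rnor_6.0) and featureCounts 1.5.0-p3 for counting. The deposited table holds raw counts and FPKM per rat, the authors' mean normalized counts of each group (a signal on the count scale), gene lengths, and the authors' DESeq2 1.16.1 comparison, whose log2 fold changes and raw and adjusted p-values were not used. Since the table lists changed genes only, the authors' size factors were recovered from the group means by least squares (largest relative error 9.19e-10). The quasi-likelihood test of edgeR 4.0.16 (R 4.3.3; filterByExpr, robust fit) compared the counts of the groups without covariates, and p-values were adjusted by the Benjamini-Hochberg method over 17000 genes, a round number for all expressed genes. The standard error is the size of the log2 fold change divided by the root of F. The fit was tested on simulated data. Members below the filter were compared by exact permutation over 252 assignments on log2 of normalized counts plus 1. Members, classes and lists were chosen with earlier results of these data known. By rule, members called past 1, the 3 most abundant and the extreme members of each class and carriers known in lens were named, 36 in all, and another 7 were named after their values were seen, and the other 3 are counted but not reported here by name. Promoter windows came from RefSeq (GRCr8). Each sample is 1 rat. Alternatives were TMM, median-of-ratios and listed totals, DESeq2 1.42.0, other filters, adjustment over the tested genes, a fit that was not robust, a block for the replicate number, leaving out each rat, and, chosen after seeing the data, Normal rats 4 and 5 left out. Figures used matplotlib 3.10.9.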

Additional observations from a re-analysis of the deposited data

Results flagged for a closer look

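In 86 groups of 5 values (43 solute carrier genes in 2 groups of rats), 4 had a highest rat that stood apart from the next by more than 0.71 of the range of the group. Chance flags about 1 in 20 groups. Slc12a3 was at 11.1 normalized counts in Normal rat 1, where the next rat had 4.58. Slc29a2 was at 50.3 in Normal rat 5 (next 22.9). Slc6a8 was at 267 in Hypothermia rat 5 (next 224), and Slco1c1 at 80.8 in Hypothermia rat 1 (next 20.2).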

How the results depend on the processing

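The counts of carriers called up-regulated and down-regulated at 0.25, and at 1, were 12, 14, 7 and 3. They were 6, 25, 5 and 5 with TMM on the listed genes, 4, 25, 2 and 5 with median-of-ratios factors, and 1, 30, 1 and 27 with the totals of the listed genes. DESeq2 with the same size factors gave 16, 26, 10 and 6, and adjustment over the tested genes 14, 28, 7 and 6, where 58.8% and 29.4%, and 63.7% and 36.3%, of all genes were called up- and down-regulated at 0.25. No filter on low counts gave 15, 16, 10 and 4. Keeping only genes with a mean of 50 normalized counts or more gave 10, 11, 5 and 0, since the 3 genes down-regulated past 1 lay below that mean, while 2 other carriers lower past 1 had an unadjusted p under 0.05 in edgeR. With 1 rat left out the counts lay between 8 and 13, 5 and 16, 4 and 9, and 1 and 5. With Normal rats 4 and 5 left out together, chosen after seeing the data, edgeR gave 0 in each case, at an unadjusted p under 0.05 for 36 of 44 carriers and a lowest adjusted p of 0.0571. With the replicate block the counts were 5, 8, 4 and 2. At a mean of 50 or more, 2165 of 2981 tested genes and 21 of 34 carriers were called at 0.25 in either direction. For the fits without the filter, with the block or without 1 rat, the share of all tested genes called is not given. Same-numbered rats were different animals whose deviations correlated between -0.19 and 0.235. Each Hypothermia rat correlated more with a Normal rat of another number than with that of its own. The same was not computed for each Normal rat. The numbers were not taken to pair the rats. Of the 35 carriers named by rule and tested, 6 reversed, all with the totals of the listed genes: Slc35a2 (-0.89), Slc35b1 (-0.89), Slc35f1 (-0.45), Slc39a13 (-0.92), Slc46a3 (-0.082) and Slc6a11 (-0.32). Slc41a2 (-0.36) and Slc15a3 (-0.22), named outside the rule and not called, also changed sign there. Directions held under the other settings run. The cause of these changes was not tested. The depth outside the table is unknown here, and carriers of a few counts, such as Slc29a2 and Slc12a3, have the least certain fold changes.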
